A study of Mus musculus with 6 samples.

Results

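The genes described here are 10 forkhead transcription factors of endothelium, taken by symbol from a table of 54429 genes: Foxp1, Foxp2, Foxp4, Foxo1, Foxo3, Foxo4, Foxc1, Foxc2, Foxf1 and Foxn3. All 10 were found. Foxp1 was among them as a putative Meis1 target, a name the study gives in part for higher expression in these same Meis1-OE libraries, so its difference between the groups is a description and not independent evidence. The study's other criteria were Meis1 binding in 3 ChIP-seq datasets and a rise from arterial to pre-hemogenic endothelium in its CITE-seq data. Apart from these criteria, it measured selected putative targets by ddPCR in endothelial cells sorted from embryos, and its primer list includes Foxp1. RNA-seq had been carried out on 6 libraries of primary aortic endothelial cells (EC) of adult wild-type C57BL/6 mice, bought as primary cells rather than isolated for the experiment. In both groups 100000 cells per well were plated, exposed to lentiviral vector for 48 h and sorted at 72 h for YFP, CD31 and VEC. The sorted cells were grown again to confluency, and RNA was taken from 300000 cells. The 3 Meis1-OE libraries carried the vector that overexpresses Meis1, a homeodomain transcription factor of the TALE class, and the 3 YFP-CTRL libraries the vector with YFP. The study describes the 3 replicates of each group as independent transductions, all of these purchased cells, and the number of donor mice is not given. The p-values therefore measure the spread between transductions and cannot be read as a spread between mice. Libraries are called here by the letter A, B or C of their column, and where 3 values are given for a group they stand in that order.

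Forkhead factors bind DNA through a winged-helix domain, most of them at sites close to GTAAACA. FOXO factors are held in check by insulin and growth factor signalling, since AKT and SGK kinases phosphorylate them and they then leave the nucleus. In endothelium Foxo1 is known for restraining growth and metabolism, Foxc1 and Foxc2 for arterial and lymphatic vessel development, Foxf1 for vessels of the lung and other organs of the embryo, and the FOXP factors act mostly as repressors through partners such as CtBP and histone deacetylases.

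Because the comparison is one of Meis1 overexpression, the start-site windows of the members were searched for the Meis core TGACAG on both strands. RefSeq windows of 300 bases (250 before to 50 after a start, GRCm38.p6) were given for 6 of the 10 members, as 8 windows, 3 of them for Foxp1. The core was found in 2 of the 8, against 19.2% of all 32851 windows, so these members did not stand out from the other genes by this count. The longer Pbx-Meis site TGATTGAC, held by 0.77% of windows, and the forkhead site GTAAACA, held by 3.65%, were in none of the 8 on either strand. The 250 bases before the start in the windows with a match are shown 5′ to 3′ on the gene's strand, with the match, which reads CTGTCA as the reverse complement of the core, in capitals. That of Foxp1 (minus strand, chr6:99266516-99266765) lies inside the gene, before an internal start.
Foxp1: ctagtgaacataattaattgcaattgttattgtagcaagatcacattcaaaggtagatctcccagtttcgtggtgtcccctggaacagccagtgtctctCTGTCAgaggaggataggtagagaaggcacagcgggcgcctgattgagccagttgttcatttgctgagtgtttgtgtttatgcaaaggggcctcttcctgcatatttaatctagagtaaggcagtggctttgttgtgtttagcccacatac
That of Foxo1 (plus strand, chr3:52268087-52268336) ends at the base before the start of the gene.
Foxo1: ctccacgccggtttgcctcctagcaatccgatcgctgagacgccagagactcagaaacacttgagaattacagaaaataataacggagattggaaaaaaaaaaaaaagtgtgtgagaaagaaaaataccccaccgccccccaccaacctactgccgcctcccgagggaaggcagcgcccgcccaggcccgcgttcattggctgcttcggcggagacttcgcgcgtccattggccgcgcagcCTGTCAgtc
No binding was measured in these libraries, and a match describes the letters of the window alone.

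The libraries held 34176592 to 47956569 counts. Meis1, which checks the labels, was counted 135325, 157828 and 149221 times in Meis1-OE EC and 39, 58 and 85 times in YFP-CTRL EC. The cells carried endothelial RNA, with Cdh5 (VE-cadherin) at 1182 to 1452 CPM (counts scaled to library size by TMM factors) in Meis1-OE EC and 1784 to 2628 CPM in YFP-CTRL EC. Of 9 endothelial markers, 4 were lower in Meis1-OE EC by log2 fold change (Cdh5, Kdr, Tek and Pecam1) and 5 higher. Of the 5, Tie1, Eng, Erg and Emcn had log2 fold changes of 0.07 to 0.11. Vwf was at 24.3, 77.6 and 87.1 CPM against 8.13, 6.23 and 7.39 CPM. Summed over 10 fibroblast and smooth muscle markers the level was 15.8 to 17.8 against 34.9 to 54.2 CPM, most of it from Pdgfra or, in YFP-CTRL library C, from Acta2, while Lum was at 0 and Dcn at 0 to 0.0441 CPM. Macrophage markers summed to 0.525 to 1.48 against 0.343 to 0.594 CPM, and epithelial markers to at most 0.109 CPM. A proliferation score, the mean log2(CPM + 1) of 15 cell cycle genes, was 6.50, 6.50 and 6.56 in Meis1-OE EC and 4.51, 5.33 and 6.49 in YFP-CTRL EC, so YFP-CTRL library C stood apart from its group and beside the Meis1-OE libraries. Results for the members are given below with and without it. In bulk RNA, fewer cells of a type and less RNA per cell cannot be told apart.

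Expression of the 10 factors was compared between Meis1-OE and YFP-CTRL EC. Foxp1 rose in Meis1-OE EC, to 220 ± 26.7 CPM from 128 ± 11 CPM (SD, n = 3 each), and was the only member past an adjusted p of 0.05 in edgeR's quasi-likelihood test over 16065 genes. Members called higher were 1 of 10, where 4.14% of all tested genes were called higher, and nothing is read from this count, since Foxp1 had been chosen in part for this contrast. Members called lower were 0 of 10, where 2.73% of tested genes were called lower, although 4 of the 10 had an unadjusted p under 0.05 in that direction, as did 13.4% of all tested genes (12.8% in the other direction), and DESeq2 called 2 of them, Foxo1 and Foxc2, where it called 6.14% of its genes lower and 6.21% higher. The median log2 fold change was -0.22 over the 10 members and 0.01 over all genes tested. The levels of 6 members did not overlap between the groups, with Foxp1 and Foxo4 higher and Foxo1, Foxo3, Foxc2 and Foxf1 lower in every Meis1-OE library, where 33.1% of tested genes did not overlap.

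**Figure D1:**
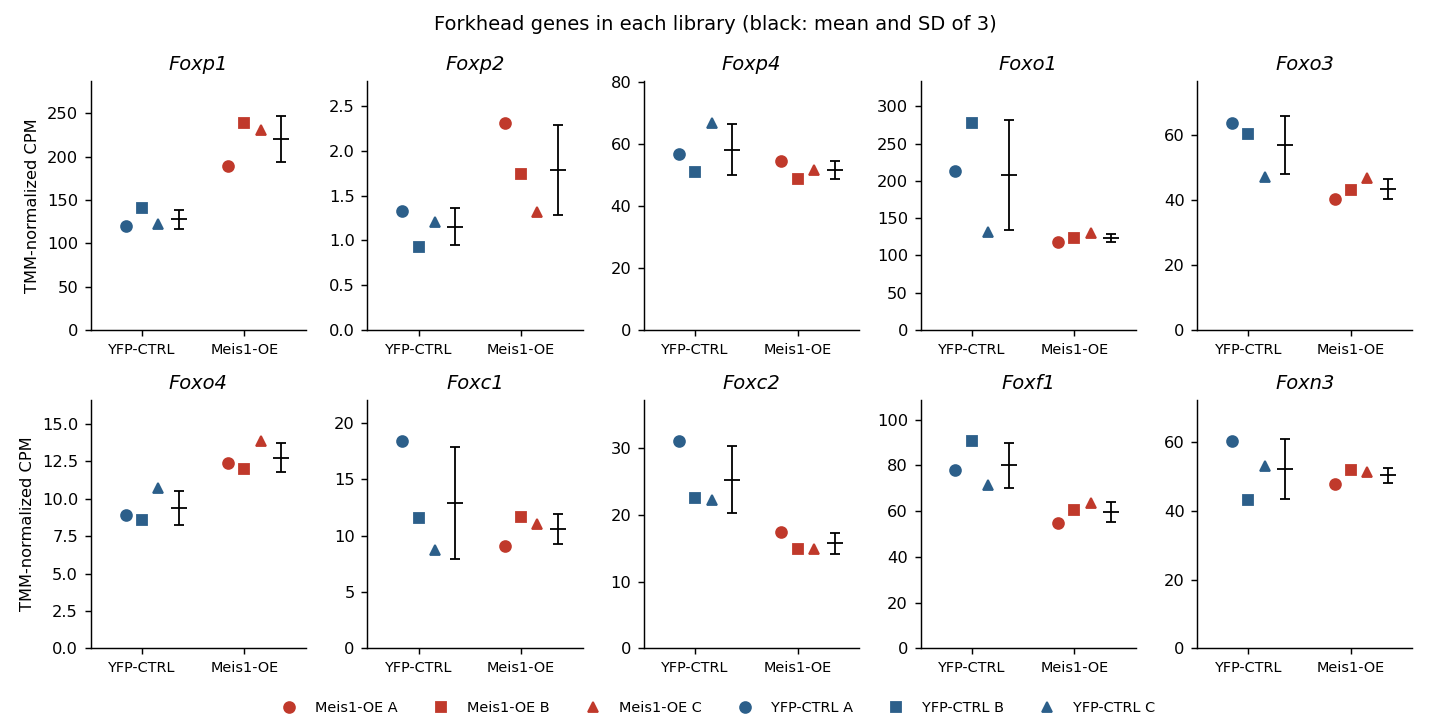
TMM-normalized CPM of the 10 members (vertical axes from 0) in YFP-CTRL libraries (blue) and Meis1-OE libraries (red), with the shape giving the column letter and the black bar the mean and SD of 3 libraries. Foxp1 lies at 190 to 239 CPM in Meis1-OE EC and at 120 to 140 CPM in YFP-CTRL EC, while for Foxo1 and Foxo3 YFP-CTRL library C sits next to the Meis1-OE libraries.

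Among the FOXP genes, Foxp1, a repressor expressed in many tissues including endothelium, was at 190, 239 and 231 CPM in Meis1-OE EC and at 120, 140 and 122 CPM in YFP-CTRL EC. The lowest Meis1-OE library was well above the highest YFP-CTRL library. The log2 fold change was 0.78 (SE 0.13, 95% interval 0.48 to 1.09, adjusted p = 0.0179 with edgeR and 3.4e-04 with DESeq2). Its call depended on single libraries, since the adjusted p from edgeR was 0.120 without Meis1-OE library B and 0.110 without Meis1-OE library C, at log2 fold changes of 0.72 and 0.75. Foxp4, a close paralog, was at 54.5, 48.5 and 51.6 CPM in Meis1-OE EC and 56.6, 50.8 and 66.9 CPM in YFP-CTRL EC, with overlapping groups and a log2 fold change of -0.17 (95% interval -0.48 to 0.14, adjusted p = 0.446 with edgeR). Foxp2, best known from the nervous system, was scarce, with 61 to 106 counts in Meis1-OE EC and 38 to 55 in YFP-CTRL EC. Its log2 fold change of 0.63 had an interval from -0.05 to 1.32 (adjusted p = 0.221 with edgeR), so a difference was not detectable at this depth.

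The counts of Foxp1 and Foxp4 were then set against each other within libraries, where scaling has no part. These are the counts already described, and Foxp1 was chosen in part for this contrast. The ratio is therefore a description and not independent evidence. There were 3.48, 4.93 and 4.48 counts of Foxp1 for each count of Foxp4 in Meis1-OE EC, and 2.13, 2.76 and 1.83 in YFP-CTRL EC. The ranges did not overlap, the log2 ratio differing by 0.95, and the two-sided exact permutation p was 0.1, the smallest that 3 libraries against 3 can give. Estimated counts of Foxp1 and Foxp2 were not whole in any library, so part of their reads had been assigned in fractions. RefSeq places 5 noncoding genes inside the span of Foxp1 (chr6:98925342-99522746), and nothing says that strand was used in counting, so reads from these genes cannot be told apart from those of Foxp1.

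Foxo1, the FOXO gene with the most reads, was at 117, 123 and 129 CPM in Meis1-OE EC and at 213, 278 and 131 CPM in YFP-CTRL EC. The Meis1-OE libraries were close together (123 ± 5.94 CPM, SD, n = 3) and the YFP-CTRL libraries far apart (208 ± 73.7 CPM, SD, n = 3), with library C only just above the Meis1-OE range. The log2 fold change was -0.75 (SE 0.25, 95% interval -1.34 to -0.17, adjusted p = 0.116 with edgeR and 0.0497 with DESeq2). Foxo3, a FOXO factor with which Foxo1 shares many targets, was at 40.5, 43.3 and 46.8 CPM in Meis1-OE EC and 64.0, 60.3 and 47.1 CPM in YFP-CTRL EC. It had the same layout, with YFP-CTRL library C next to the Meis1-OE libraries, and a log2 fold change of -0.39 (SE 0.14, 95% interval -0.73 to -0.05, adjusted p = 0.143 with edgeR). Foxo4, the third and least abundant of them, lay the other way, at 12.4, 12.0 and 13.8 CPM in Meis1-OE EC and 8.89, 8.55 and 10.7 CPM in YFP-CTRL EC, again without overlap. Its log2 fold change was 0.44 (SE 0.15, 95% interval 0.09 to 0.79, adjusted p = 0.120 with edgeR).

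The number of Foxo1 counts per Foxo3 count was 2.90, 2.84 and 2.77 in Meis1-OE EC and 3.33, 4.61 and 2.79 in YFP-CTRL EC. These ranges overlapped (two-sided exact permutation p = 0.3 for the log2 ratio), and YFP-CTRL library C again had the value of a Meis1-OE library.

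Foxc2, required for lymphatic valves and also made in arterial endothelium, was at 17.5, 14.9 and 14.8 CPM in Meis1-OE EC and at 31.1, 22.6 and 22.2 CPM in YFP-CTRL EC. All YFP-CTRL libraries, C included, were above the Meis1-OE range. The log2 fold change was -0.68 (SE 0.17, 95% interval -1.08 to -0.29), with an adjusted p of 0.058 from edgeR and 0.00775 from DESeq2. Its paralog Foxc1 was at 9.12, 11.6 and 11.1 CPM in Meis1-OE EC and 18.4, 11.5 and 8.69 CPM in YFP-CTRL EC. The groups overlapped, YFP-CTRL library A being far above the other 5, and the log2 fold change was -0.28 (95% interval -0.92 to 0.37, adjusted p = 0.559 with edgeR). The value changed sign to 0.05 when YFP-CTRL library A was left out and to 0.36 once the proliferation score was a covariate. There were 0.523, 0.784 and 0.747 counts of Foxc1 per count of Foxc2 in Meis1-OE EC and 0.593, 0.512 and 0.392 in YFP-CTRL EC, which overlapped (two-sided exact permutation p = 0.2 for the log2 ratio). Of the 4 lymphatic markers, Prox1, the defining factor of lymphatic endothelium, had at most 0.0438 CPM and Pdpn was at 0 in every library. Lyve1 moved in the direction of Foxc2, at 76.1 to 84.1 CPM in Meis1-OE EC and 161 to 461 CPM in YFP-CTRL EC (log2 fold change -1.84, adjusted p = 0.0301 with edgeR). The fourth, Flt4, overlapped between the groups, at 106, 100.2 and 103 CPM against 50.3, 97.1 and 151 CPM. The part of these markers in the result for Foxc2 was not tested.

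Foxf1, a factor of lung endothelium and of mesenchyme, was at 55.0, 60.5 and 63.6 CPM in Meis1-OE EC and at 78.2, 90.7 and 71.4 CPM in YFP-CTRL EC. The groups did not overlap, and the log2 fold change was -0.42 (SE 0.13, 95% interval -0.72 to -0.12, adjusted p = 0.0938 with edgeR and 0.0785 with DESeq2). Pdgfra, a mesenchymal gene, was also lower in every Meis1-OE library, at 11.7 to 11.9 against 33.3, 49.1 and 15.6 CPM, while collagen genes Col1a1, Col1a2 and Col3a1 stayed under 0.3 CPM in every library. Pdgfrb, of the same list, overlapped between the groups, at 2.34, 2.18 and 2.96 CPM against 0.972, 2.38 and 1.74 CPM (log2 fold change 0.55). The part of the mesenchymal markers in the Foxf1 result was not tested. Foxf1 and Foxc2 lie close together on chromosome 8 (chr8:121084386-121088154 and chr8:121116171-121118895), with the lncRNA gene Fendrr on one side and Foxl1 on the other. Fendrr was at 6.30, 5.31 and 4.77 CPM in Meis1-OE EC and 5.86, 3.85 and 5.99 CPM in YFP-CTRL EC, overlapping and with a log2 fold change of 0.06 (adjusted p = 0.891 with edgeR) that was -0.05 without Meis1-OE library A and -0.11 without YFP-CTRL library B. Foxl1 had 5 to 15 counts. On chromosome 13 the forkhead genes Foxf2 and Foxq1, which lie near Foxc1, had at most 1 count. Other genes in or beside these regions of chromosomes 8 and 13 were not looked up.

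Foxn3, a repressor tied to cell cycle checkpoints, was at 47.7, 51.7 and 51.2 CPM in Meis1-OE EC and 60.2, 43.0 and 53.1 CPM in YFP-CTRL EC. The Meis1-OE libraries lay inside the YFP-CTRL range, and the log2 fold change of -0.05 (95% interval -0.39 to 0.29, adjusted p = 0.855 with edgeR) was 0.08 with scaling by library totals, 0.02 once the proliferation score was a covariate and 0.05 without YFP-CTRL library A.

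**Figure D2:**
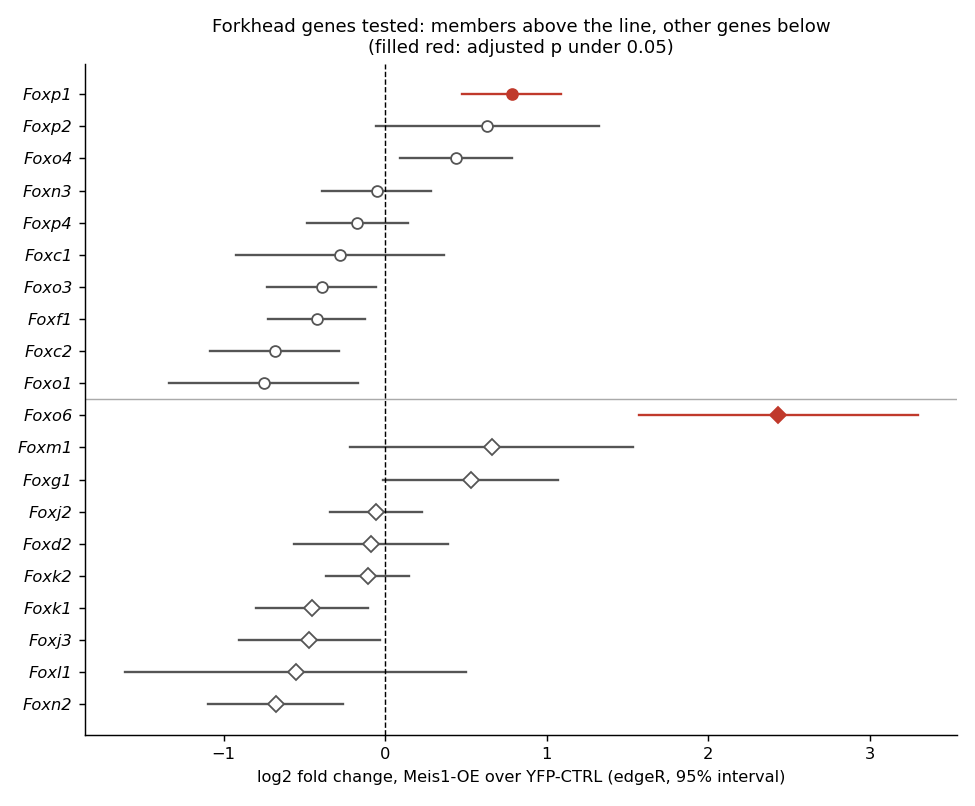
Log2 fold change of Meis1-OE over YFP-CTRL EC (horizontal axis) with its 95% interval from edgeR for the 10 members (circles, above the grey line) and for 10 of the other 11 tested forkhead genes (diamonds), filled red where the adjusted p is under 0.05. Foxp1 and Foxo6 are filled, and Foxs1, which was near 0 counts in YFP-CTRL EC, is not drawn.

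Levels of the members were set side by side per length, as RPKM, which is CPM divided by the kilobases of merged exons. Leaving Foxf1 aside, Foxo1 had the highest mean of the members, at 37.4 ± 13.3 RPKM in YFP-CTRL EC and 22.2 ± 1.07 RPKM in Meis1-OE EC (SD, n = 3 each). Outside the members, Foxm1 was at 18.5 ± 9.91 RPKM in YFP-CTRL EC and, above Foxo1, at 29.2 ± 2.36 RPKM in Meis1-OE EC. Foxf1 was at 65.5 ± 8.0 and 48.9 ± 3.58 RPKM, but with an annotated exon length of 1222 bases. Against the 3769 bases the gene spans in RefSeq it would be at 21.2 ± 2.59 and 15.8 ± 1.16 RPKM, so its place in the order is not settled. Foxn3 was at 18.4 ± 3.06 and 17.8 ± 0.768 RPKM, on an exon length of 2830 bases that may also be short, so its place is uncertain too. Foxp1 came to 10.7 ± 0.924 and 18.4 ± 2.24 RPKM. In Meis1-OE EC Foxp1 overlapped Foxn3, whereas in YFP-CTRL EC it overlapped Foxp4 (11.8 ± 1.65 RPKM) and Foxc2 (9.28 ± 1.84 RPKM). Foxc2 also overlapped Foxo3 in both groups, at 5.77 ± 0.555 against 6.04 ± 0.438 RPKM in Meis1-OE EC. Foxo4 and Foxc1 lay between 2.66 and 3.65 RPKM in mean and overlapped in YFP-CTRL EC, and Foxp2 was lowest at 0.0859 ± 0.015 and 0.133 ± 0.0374 RPKM.

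**Figure D3:**
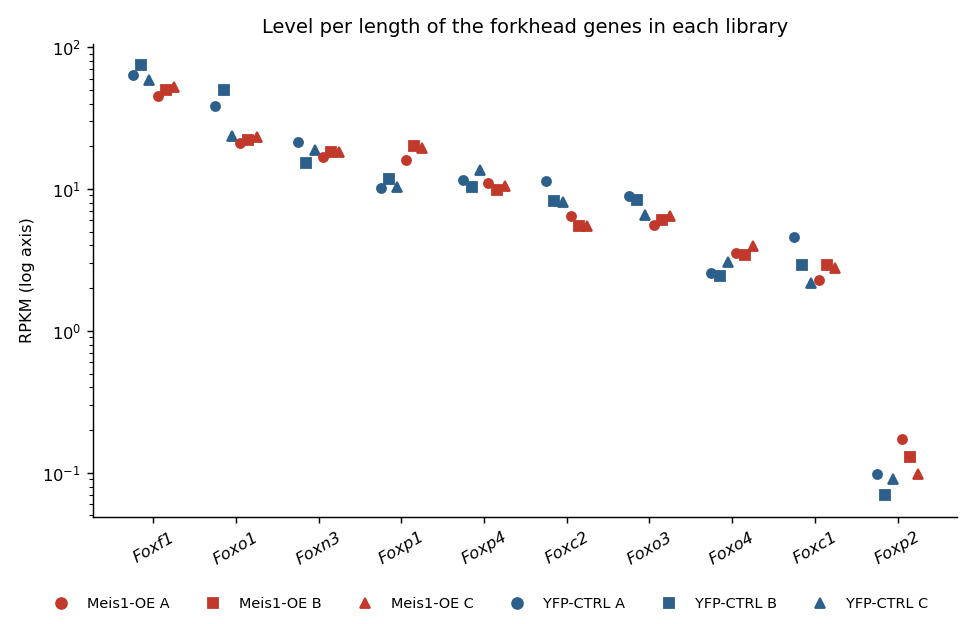
RPKM (log axis) of each member in the 6 libraries, ordered by mean level, with Meis1-OE in red, YFP-CTRL in blue and the shape giving the column letter. Levels run from 0.0859 RPKM for Foxp2 to 65.5 RPKM for Foxf1 in mean of YFP-CTRL EC, the last with an exon model of 1222 bases.

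Summed per family, the FOXP genes came to 27.1, 30 and 30 RPKM in Meis1-OE EC and to 21.7, 22.2 and 23.9 RPKM in YFP-CTRL EC. Foxp1 made up 58.6% to 66.8% of that sum in Meis1-OE EC and 42.9% to 53.1% in YFP-CTRL EC. The 3 FOXO genes summed to 30.3, 31.6 and 33.8 RPKM in Meis1-OE EC and 49.9, 60.9 and 33.2 RPKM in YFP-CTRL EC, where library C lay inside the Meis1-OE range. Foxc1 and Foxc2 together came to 8.70, 8.37 and 8.23 RPKM against 16, 11.2 and 10.3 RPKM, without overlap.

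The levels were then set against the proliferation score, whose ranges in the groups did not overlap. YFP-CTRL library C, whose score of 6.49 was next to the 6.50 to 6.56 of the Meis1-OE libraries, had 122 CPM of Foxp1, at the level of the other YFP-CTRL libraries. For Foxo1, Foxo3 and the cell cycle factor Foxm1 the same library had 131, 47.1 and 156 CPM, next to or inside the ranges of the Meis1-OE libraries. With the score as a covariate the log2 fold change of Foxp1 was again 0.78, with an adjusted p of 0.0528 from edgeR, and that of Foxo1 was -0.29 (adjusted p = 0.622 with edgeR). In the same fit Foxo3 was at -0.14, Foxc2 at -0.42, Foxf1 at -0.34 and Foxo4 at 0.29. None of them passed (adjusted p = 0.616, 0.207, 0.274 and 0.400 with edgeR). Since the score itself differed between the groups, it and the vector cannot be fully told apart in this fit.

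**Figure D4:**
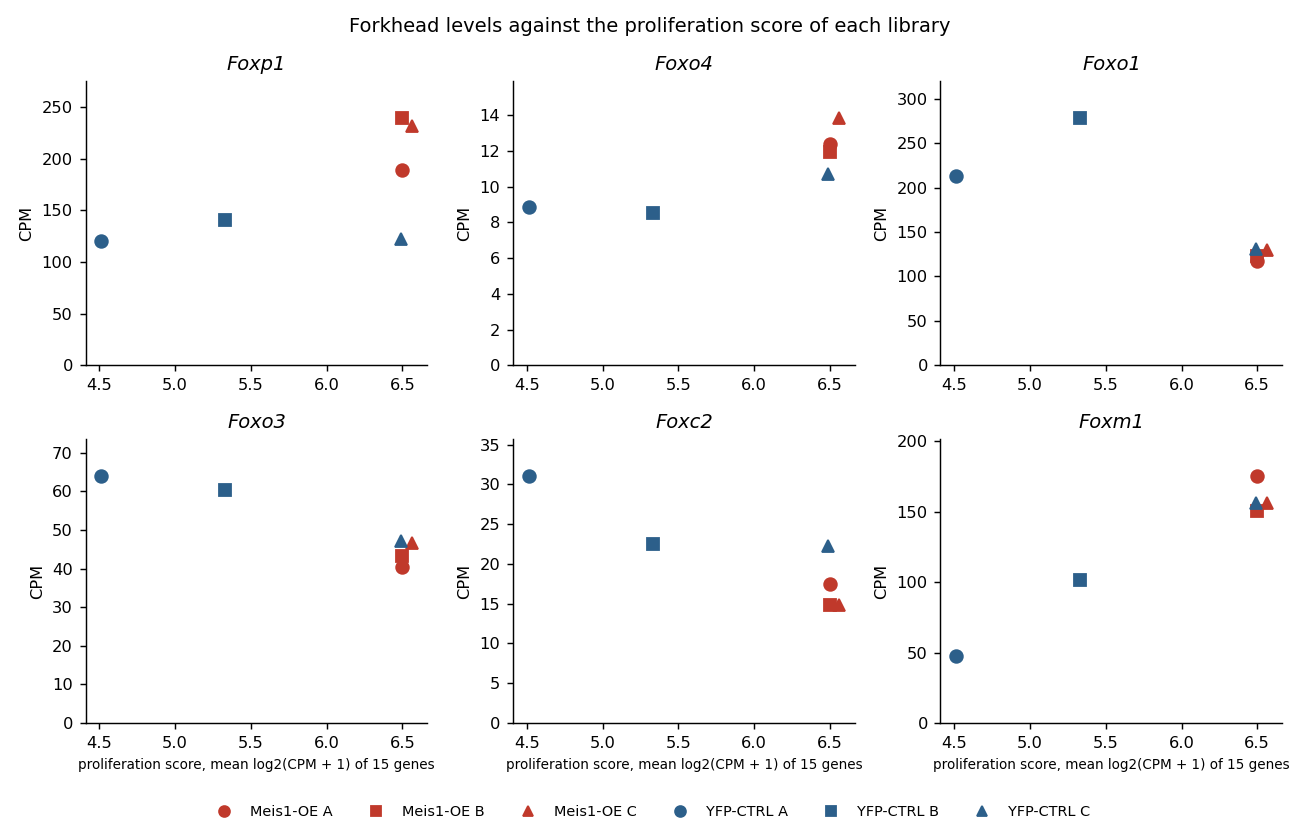
TMM-normalized CPM (vertical axes from 0) of 5 members and of Foxm1 against the proliferation score of each library (mean log2(CPM + 1) of 15 genes), Meis1-OE in red and YFP-CTRL in blue. At a score of 6.49 YFP-CTRL library C has 122 CPM of Foxp1, below the 190 to 239 CPM of the Meis1-OE libraries, and 131 CPM of Foxo1, beside their 117 to 129 CPM.

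Without YFP-CTRL library C, 6 members passed the threshold, 2 higher and 4 lower. Foxp1 and Foxo4 rose in that fit, at log2 fold changes of 0.74 and 0.53, where edgeR gave an adjusted p of 0.00818 and 0.0176. Foxp2, Foxp4, Foxc1 and Foxn3 did not pass in the same fit, at log2 fold changes of 0.67, -0.07, -0.50 and -0.05. Foxo1, Foxo3, Foxc2 and Foxf1 fell in it, at log2 fold changes of -1.01, -0.53, -0.78 and -0.51, where edgeR gave an adjusted p of 0.00285, 0.00588, 0.0135 and 0.0137. The number of genes called over the whole table rose with them, to 2717 higher and 2498 lower from 665 and 438, which is 16.5% and 15.2% of the genes tested in that fit. Among the other genes named below, Foxm1 rose in that fit (log2 fold change 1.09), and Foxk1, Foxj3, Crebbp, Ep300, Insr, Cdh5, Kdr and Gatad2b fell, by 0.59, 0.66, 0.51, 0.52, 0.37, 0.84, 1.51 and 0.65 on the log2 scale. Their adjusted p-values from edgeR lay between 0.00232 for Gatad2b and 0.0418 for Foxm1. None of these 9 genes passed in the main edgeR fit of all 6 libraries. DESeq2 on all 6 libraries called Kdr, Cdh5 and Crebbp lower (adjusted p = 0.00134, 0.0095 and 0.0487 with DESeq2).

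**Figure D5:**
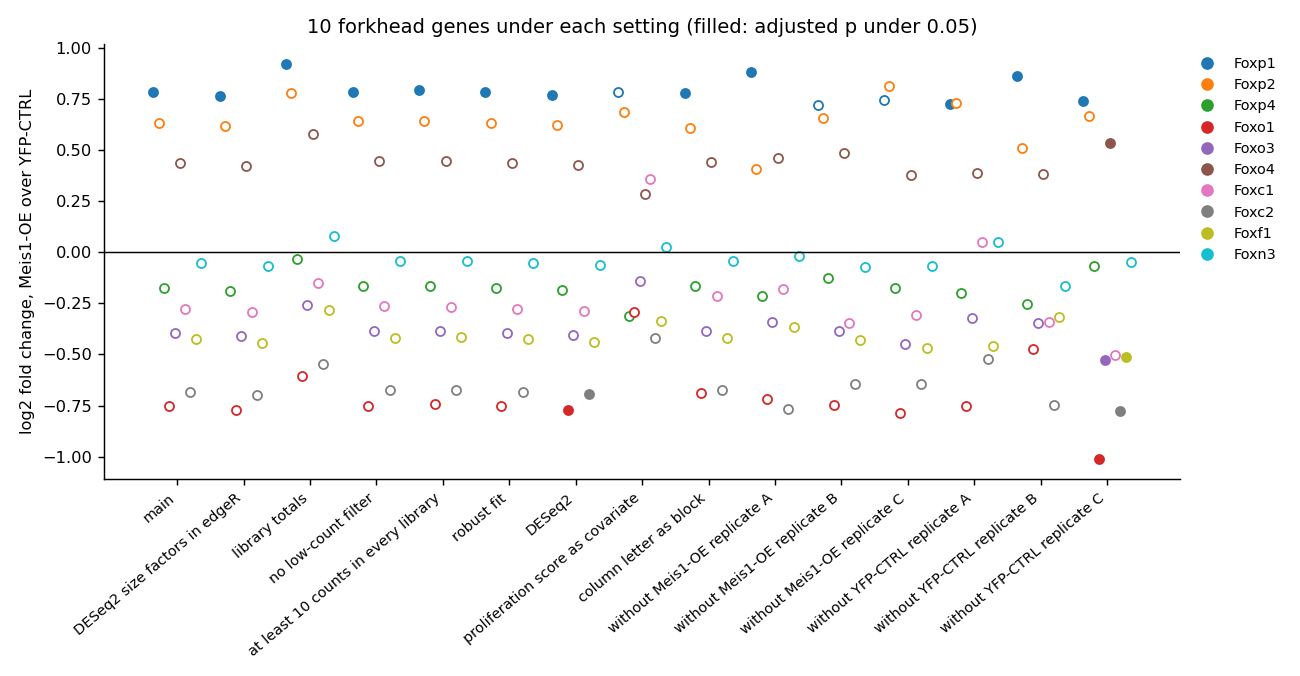
Log2 fold change (vertical axis) of each of the 10 members, by colour, under the fit of all 6 libraries (main) and 14 alternatives, filled where the adjusted p is under 0.05. Foxp1 stays between 0.72 and 0.92 and is filled in 11 of the 14 alternatives, and without YFP-CTRL library C 6 members are filled.

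Of 34 other forkhead genes in the table, 21 had at most 3 counts in every library and 11 were tested. Called were 2 higher and 0 lower, where 4.14% and 2.73% of all tested genes were. At an unadjusted p under 0.05 there were 2 higher and 3 lower, where 12.8% and 13.4% of all tested genes were. DESeq2 called 2 higher and 1 lower, where it called 6.21% and 6.14% of its genes. Foxo6, the FOXO gene known mostly from brain, rose to 1.40, 2.07 and 2.18 CPM from 0.50, 0.221 and 0.330 CPM, on 64, 94 and 101 counts against 17, 9 and 15. Its log2 fold change was 2.43 (SE 0.37, adjusted p = 0.0135 with edgeR). Foxs1 rose as well (adjusted p = 0.0285 with edgeR), from 0, 0 and 3 counts to 25, 26 and 15, a ratio of 19.2 with a counting interval from 6.31 to 95.7. Foxm1, which drives genes of mitosis, was at 175, 150 and 156 CPM against 47.4, 102 and 156 CPM (log2 fold change 0.66, adjusted p = 0.306 with edgeR, and -0.09 once the proliferation score was a covariate). Foxk1, Foxk2 and Foxj3, the next in abundance, had log2 fold changes of -0.45, -0.11 and -0.47 and did not pass.

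Genes that act on the FOXO factors formed a list of 23, of which 22 were tested. Called were 3 higher and 0 lower, where 4.14% and 2.73% of all tested genes were. At an unadjusted p under 0.05 there were 5 higher and 3 lower, where 12.8% and 13.4% of all tested genes were. DESeq2 called 4 higher and 1 lower, where it called 6.21% and 6.14% of its genes. Sgk1, a kinase that phosphorylates FOXO proteins, rose to 322, 307 and 325 CPM in Meis1-OE EC from 169, 99.7 and 107 CPM in YFP-CTRL EC (log2 fold change 1.34, adjusted p = 0.0139 with edgeR). Irs1, the adaptor of the insulin receptor, rose to 11.5, 17.4 and 16 CPM from 4.92, 2.23 and 3.50 CPM (log2 fold change 2.08, adjusted p = 0.0123 with edgeR). For both genes the groups did not overlap. Pik3r1, the regulatory subunit of PI3K, was just past the threshold at a log2 fold change of 0.61 (adjusted p = 0.0496 with edgeR). Akt1 had 0.06, the acetyltransferase genes Crebbp and Ep300 had -0.41 and -0.36, and Usp7, a deubiquitinase, had -0.12 (0.02 with library totals), none of them past the threshold with edgeR. The value of Akt1 was -0.22 once the proliferation score was a covariate.

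Of 25 genes described as FOXO targets, 22 were tested, 2 were called higher and 1 lower, where 4.14% and 2.73% of all tested genes were. At an unadjusted p under 0.05 there were 4 higher and 3 lower, where 12.8% and 13.4% of all tested genes were. DESeq2 called 3 higher and 2 lower, where it called 6.21% and 6.14% of its genes. Sesn3, a stress-responsive regulator of mTORC1, rose to 22.4, 28.0 and 28.2 CPM from 14.5, 13.4 and 15 CPM (log2 fold change 0.87, adjusted p = 0.0153 with edgeR). Pik3ip1, an inhibitor of PI3K, rose on 60 to 102 counts against 8 to 21 (log2 fold change 2.32, adjusted p = 0.0337 with edgeR). Cited2, a transcriptional co-regulator, fell to 27.5, 26.0 and 23.0 CPM from 102, 54.3 and 45.6 CPM (log2 fold change -1.40, adjusted p = 0.0377 with edgeR). The abundant targets Nos3, Klf2, Cdkn1a and Insr had log2 fold changes of 0.12, -0.21, -0.24 and -0.28 and did not pass. The median over the 22 was 0.06, so the list as a whole lay near the 0.01 of all genes. Without Meis1-OE library B, or without C, edgeR called 0 genes in the lists of other forkhead genes, FOXO regulators and FOXO targets.

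Among 9 genes described as downstream of Foxc1 and Foxc2, 7 were tested. Called were 2 higher and 0 lower, where 4.14% and 2.73% of all tested genes were. At an unadjusted p under 0.05 there were 3 higher and 0 lower, where 12.8% and 13.4% of all tested genes were. DESeq2 called 2 higher and 0 lower, where it called 6.21% and 6.14% of its genes. Gja4, the arterial gap junction gene of connexin 37, rose to 5.75, 13.1 and 17.4 CPM from 0.118, 0.245 and 0.616 CPM (log2 fold change 5.14, adjusted p = 0.00747 with edgeR). Rspo3, a secreted enhancer of Wnt signalling, had 167, 372 and 291 counts in Meis1-OE EC and 0 in every YFP-CTRL library, at least 242-fold higher against a floor of 3 counts over the group (adjusted p = 0.0048 with edgeR). Itgb3, Flt4, Dll4 and Angpt2 had log2 fold changes of 0.48, 0.05, -0.89 and -0.05 and did not pass. Dll4 passed at -1.71 with the proliferation score in the fit (adjusted p = 0.00875 with edgeR) and at -1.26 when YFP-CTRL library A was left out (adjusted p = 0.0303 with edgeR), and was at -0.40 when YFP-CTRL library C was left out. The signs for Flt4 and Angpt2 were not stable, at -0.66 for Flt4 with the proliferation score as a covariate and 0.10 for Angpt2 with scaling by library totals. Prox1 and Cxcr4 were almost without counts.

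All 7 endothelial genes described as downstream of Foxf1 were tested. Called were 0 higher and 2 lower, where 4.14% and 2.73% of all tested genes were. At an unadjusted p under 0.05 there were 1 higher and 4 lower, where 12.8% and 13.4% of all tested genes were. S1pr1, the receptor for sphingosine 1-phosphate that steadies endothelial junctions, fell to 266, 263 and 285 CPM from 527, 665 and 364 CPM (log2 fold change -0.93, adjusted p = 0.0441 with edgeR). Tek, the angiopoietin receptor TIE2, fell to 38.7, 46.4 and 51.4 CPM from 66.1, 90.2 and 78.3 CPM (log2 fold change -0.78, adjusted p = 0.0351 with edgeR). Kdr and Cdh5 were next to the threshold at -1.23 and -0.70 (adjusted p = 0.0504 and 0.0535 with edgeR), and Pecam1 and Flt1 had -0.11 and -0.36. Tek, Kdr, Cdh5 and Pecam1 are the same genes given above as lower endothelial markers, and are not separate evidence. A link of the listed genes to Foxf1 was not tested. Pdgfb, a growth factor for mural cells, lay the other way, at 104, 88.9 and 87.2 CPM against 27.2, 30.3 and 61.8 CPM (log2 fold change 1.23, adjusted p = 0.0588 with edgeR and 0.00226 with DESeq2). DESeq2 called 1 gene of the list higher and 4 lower, where it called 6.21% and 6.14% of its genes. The value of Pecam1 was 0.03 with library totals.

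The 9 genes of FOXP partners, co-repressors and histone deacetylases, were all tested. edgeR called 0 of them, where it called 4.14% of all tested genes higher and 2.73% lower. At an unadjusted p under 0.05 there were 1 higher and 2 lower, where 12.8% and 13.4% of all tested genes were. DESeq2 called 1 higher and 0 lower, where it called 6.21% and 6.14% of its genes. Gatad2a, Ctbp1, Gatad2b and Mta1 had log2 fold changes of 0.05, -0.07, -0.49 and -0.27, and those of the first and the second changed sign, to -0.17 with the proliferation score as a covariate and to 0.07 with library totals.

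The 5 genes whose pattern over the 6 libraries was most like that of Foxp1 were Arfgap3, Tecpr1, Kif13b, Etl4 and Smim14, with root mean square differences of 0.053 to 0.076 in centred log2(CPM + 1) among tested genes with a mean of at least 5 CPM. Since likeness was taken over the same libraries, each of them was by construction higher in Meis1-OE EC, with log2 fold changes from 0.67 to 0.89.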

How the data were processed

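RNA-seq libraries of 6 aortic EC samples (3 Meis1-OE, 3 YFP-CTRL) were analysed. The authors deposited estimated counts (expected counts) of reads per gene for 54429 genes by symbol, not normalized, and counts were rounded to whole numbers here. The submitters' processing notes name mm10, and the counting tool is not given in the sources used here. Columns carry letters and labels carry numbers, so columns were assigned to groups only. Counts were fitted in R 4.3.3 with edgeR 4.0.16 (TMM, filterByExpr, 16065 genes kept, quasi-likelihood test, Benjamini-Hochberg adjustment over these genes, threshold 0.05), and DESeq2 1.42.0 was an alternative. The common biological coefficient of variation was 0.233. Standard errors were derived from the F statistic. Both programs were run on simulated data with the same spread for every gene and no outlying library. That run checks the code and not the stability of the calls reported here. Ratios within libraries (pseudocount 0.5) were compared by two-sided exact permutation. Counting intervals (95%) and floors cover counting error only. Exon lengths came from a gene annotation of build NCBIM37 by symbol (10 of 10 members, Foxf1 by its older symbol Foxf1a), and start-site windows and positions from RefSeq, GRCm38.p6. Figures were drawn with matplotlib 3.10.9.

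Members and lists were chosen with earlier results of these data known. A few related genes are left out and not reported here. Genes named were all members, Meis1, every listed gene past the threshold with up to 4 of the most abundant others per list, and the 5 genes most like Foxp1; marker genes and Pdgfb, Foxl1, Foxf2, Foxq1, Prox1 and Cxcr4 were named after their values were seen. Alternatives were other scalings, filters, a robust fit, the proliferation score as a covariate, a replicate block and each library left out.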

Additional observations from a re-analysis of the deposited data

How the results depend on the processing

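Foxp1 kept its direction in all 14 alternatives (log2 fold change 0.72 to 0.92) and its call in 11. The other members kept theirs except Foxc1 and Foxn3, whose values were 0.36 and 0.025 once the proliferation score was a covariate, 0.081 for Foxn3 with library totals, and from -0.50 to 0.051 and from -0.16 to 0.053 with single libraries left out. Library totals moved the median of all genes to 0.15 from 0.01. Members called higher were 0 with the covariate and 0 to 2 with a library left out, and members called lower were 2 with DESeq2 and 0 to 4 with a library left out, the 4 without YFP-CTRL library C. Over all genes, 1048 were called higher and 179 lower with library totals, 1128 and 1115 with DESeq2, 366 and 290 with the covariate, and 115 to 2717 and 16 to 2498 with a library left out. The low ends came without Meis1-OE library B and the high ends without YFP-CTRL library C.

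Other forkhead genes called higher, 2 with all libraries, were 0 with at least 10 counts in every library, 1 with the covariate and 0 to 3 with a library left out. Other forkhead genes called lower were 1 with DESeq2 and 0 to 3 with a library left out. FOXO regulators called higher were 0 to 7 with a library left out, and those called lower were 1 with DESeq2 and 0 to 5. FOXO targets called higher were 1 with at least 10 counts in every library and 0 to 4 with a library left out. FOXO targets called lower were 0 with library totals or the covariate, 2 with no filter or DESeq2, and 0 to 4 with a library left out. Without Meis1-OE library B or C, 0 genes were called in these 3 lists by edgeR. Of 14 alternatives the call held in 5 for Pik3r1, 10 for Sgk1, 12 for Irs1, 11 for Sesn3, 8 for Cited2, 6 for S1pr1 and 9 for Tek, and of 13 in which the gene was tested, in 10 for Foxo6, 6 for Foxs1, 8 for Pik3ip1, 12 for Gja4 and 13 for Rspo3.

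Among the other genes named, direction turned with the covariate for Foxm1 (-0.094), Foxd2os (-0.51), Akt1 (-0.22), Nos3 (-0.12), Flt4 (-0.66) and Gatad2a (-0.17). It turned with library totals for Foxk2 (0.035), Usp7 (0.017), Angpt2 (0.10), Pecam1 (0.033) and Ctbp1 (0.071). With single libraries left out, log2 fold changes ran from -0.063 to 0.22 for Akt1, -0.44 to 0.19 for Angpt2, -0.11 to 0.17 for Fendrr, -0.28 to 0.46 for Flt4, -0.14 to 0.56 for Foxd2os, -0.044 to 0.17 for Gatad2a, -0.031 to 0.19 for Nos3 and -0.28 to 0.031 for Pecam1. The causes were not tested.

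Whether the column letters pair the samples was not settled. Deviations from the group mean correlated between same-letter libraries at 0.245 for A, 0.19 for B and 0.0809 for C. Between different letters, Meis1-OE library C and YFP-CTRL library B stood at 0.249. The other different-letter pairs were negative, down to -0.301. With the letter as a replicate block, 189 genes were called lower in place of 438, 1 other forkhead gene and 1 FOXO target were called higher, and Angpt2 was at 0.081, while Foxp1 stayed called. With 3 libraries per group, members under about 100 counts, such as Foxp2, are limited by depth.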
